A study of Rattus norvegicus with 15 samples.

Results

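The genes described here are the Notch receptors NOTCH1, NOTCH2, NOTCH3 and NOTCH4, the ligands JAG1, JAG2, DLL1 and DLL4, and the target genes HES1 and HEY1. These 10 genes were taken by symbol from a table of 17463 gene symbols measured in rat mammary tumours, and all 10 passed the filter on low counts, as did 11665 genes in all. NOTCH2 is included among them as a reported receptor for midkine, a heparin-binding growth factor. Tumours were induced in Fischer rats with the carcinogen N-nitroso-N-methylurea (NMU). The midkine group (9 libraries) came from rats given courses of rat midkine recombinant protein (300 ug/kg, 3 times weekly, each course lasting 2 weeks) that each ended in an intraperitoneal dose of NMU (50 mg/kg). The vehicle group (6 libraries) came from tumours of Fischer rats labelled vehicle in the same NMU experiment, and what the vehicle was is not stated. The labels give neither age nor sex, and a library is a piece of a whole tumour rather than a purified cell type. Some titles share a number (midkine 3-1 and 3-2; midkine 4-1, 4-2 and 4-3; vehicle 2-1 and 2-2), and no label says whether such tumours came from the same animal, so p-values measure the spread between libraries, which may lie partly within an animal.

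Notch signalling passes between touching cells. A Jagged or Delta-like ligand on the membrane of a neighbour pulls on the receptor, which is then cut by an ADAM protease and by gamma-secretase, and the freed intracellular domain enters the nucleus, joins the DNA-binding protein RBPJ and switches on genes such as those of the HES and HEY repressor families. In the mammary gland the pathway is known for its part in the choice between basal and luminal cells, and in vessels DLL4 and NOTCH4 act in endothelial cells while NOTCH3 is a receptor of pericytes and vascular smooth muscle. Notch4 was first found in mice as an insertion site of the mouse mammary tumour virus.

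HES1 is the textbook direct target of RBPJ, and DLL1 was the other member whose upstream bases held the longer form of the letters that RBPJ is known to bind, so these windows are shown. RefSeq promoter windows (assembly GRCr8) were found for 8 of the 10 genes, and the 250 bases before each start were searched on both strands for GTGGGAA and for its shorter core TGGGAA, which the longer form contains. Over 33469 such windows, 5.27% held GTGGGAA and 22.1% held TGGGAA. Of 9 windows of members, GTGGGAA was present in 2 (HES1 and DLL1) and TGGGAA in 3 (HES1, DLL1 and NOTCH4). In HES1 (chr11:84213046-84213295, minus strand) the longer form lay 124 to 118 bases before the start and a second core lay 109 to 104 bases before it, both in the same orientation. In DLL1 (chr1:64993275-64993524, minus strand) the longer form was on the opposite strand, 185 to 179 bases before the start, and a core lay 82 to 77 bases before it. A match of letters is a description and not a shown binding site. Capitals mark the matches, written 5′ to 3′ along the gene.
HES1: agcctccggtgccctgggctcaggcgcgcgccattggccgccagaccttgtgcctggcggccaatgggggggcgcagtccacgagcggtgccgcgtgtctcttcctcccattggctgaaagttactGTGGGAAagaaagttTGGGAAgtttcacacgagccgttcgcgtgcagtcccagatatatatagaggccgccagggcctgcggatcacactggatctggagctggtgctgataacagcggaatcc
DLL1: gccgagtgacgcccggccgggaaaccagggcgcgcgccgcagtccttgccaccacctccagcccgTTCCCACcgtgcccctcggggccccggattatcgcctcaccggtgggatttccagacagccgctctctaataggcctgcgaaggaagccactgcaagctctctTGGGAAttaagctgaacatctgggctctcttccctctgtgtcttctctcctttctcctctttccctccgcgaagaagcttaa

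Libraries held 4925504 to 8486523 counted reads, and the members had between 13 reads (HEY1) and 5078 reads (JAG2) in a library. Levels are given as CPM, counts relative to a library total that was first rescaled by the trimmed mean of M-values (TMM), so that a few genes that fill a library weigh little. Such genes filled midkine 1, in which 10 genes took 26.2% of the reads and MYH4, a skeletal muscle myosin, stood at 424500 reads. MYH4 had more than 10 reads in 10 libraries (all 6 vehicle libraries and midkine 1, 2, 5 and 6) and at most 1 read in the other 5, all of the midkine group. Values of these MYH4-positive libraries alone are given beside several results. Markers of other cells moved with the group without passing the threshold: all 11 fibroblast, all 12 macrophage and all 12 T and NK cell markers tested had higher means in midkine tumours, and the summed level of the last list ran from 41.5 to 1735 CPM in midkine and from 43.1 to 111 CPM in vehicle tumours. In the other direction, 12 of 14 basal markers had lower means in midkine tumours, none past the threshold. At most 1 marker of these lists was without reads in any library, and their part in the Notch values was not tested. Of all genes at an unadjusted p under 0.05, 78.9% were higher in midkine tumours, against 59.6% when scaled by deposited totals alone and 46.8% with limma-voom. All 14 measured epithelial markers had reads in each of the 15 libraries, a mark too low to check the tissue label. Their summed level ran from 2833 CPM (midkine 1) to 14115 CPM in midkine tumours and from 6397 to 9058 CPM in vehicle tumours. In midkine 1 the skeletal muscle markers summed to 324471 CPM.

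No Notch gene passed the threshold between midkine and vehicle tumours. With edgeR's quasi-likelihood test and adjustment over all 11665 genes, 0 of the 10 members had an adjusted p under 0.05, and the background was 0% of all genes. DESeq2 and limma-voom also called 0 of the 10, while over all genes DESeq2 called 79 and limma-voom 0. At an unadjusted p under 0.05 stood 2 members by edgeR, NOTCH3 and HEY1, both lower in midkine tumours. At that mark stood 10.1% of all genes, 7.96% higher and 2.13% lower. DESeq2 gave the same 2 names and limma-voom added JAG2. No member had groups that did not overlap, and 0.0171% of all genes did. The members' median log2 fold change was -0.07, against 0.04 over all genes, with 8 of the 10 below 0 and 44.3% of all genes below 0.

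**Figure D1:**
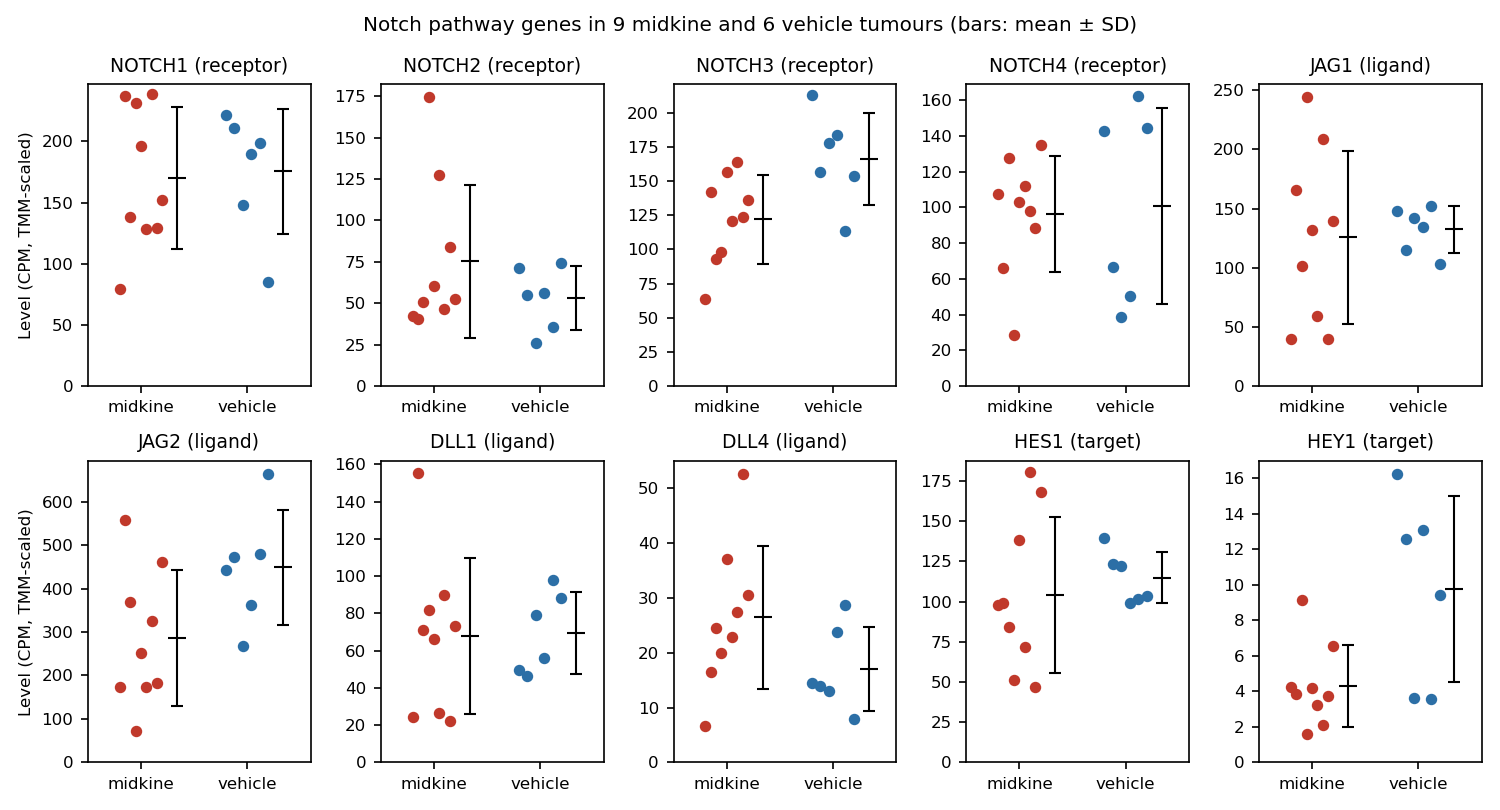
Level of each Notch gene in CPM (vertical axes, linear and starting at 0) in 9 midkine and 6 vehicle tumours, a point per library, with the mean and SD beside each group. Every midkine library lies below the median of the vehicle libraries for NOTCH3 and for HEY1, and the groups overlap in all 10 panels.

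Among the receptors, NOTCH3 was the member whose midkine libraries lay most evenly to the low side. It stood at 63.4 CPM in the lowest, 124 CPM in the median and 164 CPM in the highest midkine library, against 113, 167 and 213 CPM in vehicle tumours. All 9 midkine libraries were below the vehicle median and 3 were below the lowest vehicle library, while the other 6 lay within the vehicle range. The means were 122 ± 32.4 CPM in midkine tumours (SD, n = 9) and 166 ± 33.8 CPM in vehicle tumours (SD, n = 6), a log2 fold change of -0.45 (SE 0.19, edgeR adjusted p = 0.455). Among the MYH4-positive libraries, which include midkine 1, the lowest NOTCH3 library, it was -0.50 (SE 0.25). Without midkine 1 it was -0.36 (SE 0.16). With 1 library left out it ran from -0.54 (without vehicle 5) to -0.35 (without vehicle 2-1, edgeR unadjusted p = 0.103).

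NOTCH2, the reported midkine receptor, ranged from 40.3 CPM through a median of 52.7 CPM to 175 CPM in midkine tumours, against 25.7, 55.7 and 74.3 CPM in vehicle tumours. Most midkine libraries lay within the vehicle range, and 3 lay above it: midkine 3-2 at 175 CPM, midkine 4-2 at 127 CPM and midkine 5 at 84.1 CPM. The log2 fold change was 0.51 (SE 0.36, edgeR adjusted p = 0.682). Without midkine 3-2 it was 0.25 (SE 0.30), and without vehicle 3, the lowest library, it was 0.36 (SE 0.36). Among the MYH4-positive libraries, which leave out midkine 3-2 and 4-2, the highest NOTCH2 libraries, it was 0.060 (SE 0.32). The T and NK cell markers were also highest in midkine 4-2 and 3-2, with mean levels of 6.78 and 5.34 log2 CPM. No vehicle library was above 2.68 log2 CPM. In midkine 5 they stood at 2.29 log2 CPM, within the vehicle range. In midkine 3-1 and 4-1 they stood at 4.28 and 3.75 log2 CPM, with NOTCH2 at 50.5 and 60.1 CPM. The part of these markers in the NOTCH2 value was not tested. The medians of NOTCH2 stood in the opposite order to the means, which were 75.4 ± 46.3 CPM in midkine tumours (SD, n = 9) and 53.1 ± 19.3 CPM in vehicle tumours (SD, n = 6).

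NOTCH1, a receptor used in many tissues and activated by mutation in some leukaemias, spanned 79.1 to 239 CPM in midkine tumours (median 152 CPM) and 85.0 to 221 CPM in vehicle tumours (median 194 CPM). Midkine 1 and vehicle 6 were the low libraries, and the groups covered almost the same range. Its log2 fold change was -0.046 (SE 0.25, edgeR adjusted p = 0.973). NOTCH4 spanned 28.4 to 135 CPM in midkine tumours (median 103 CPM) and 38.3 to 162 CPM in vehicle tumours (median 105 CPM). Vehicle libraries fell into a low set (vehicle 2-2, 3 and 4, at 66.8 CPM or less) and a high set (vehicle 2-1, 5 and 6, at 143 CPM or more), and most midkine libraries lay between them. The log2 fold change of NOTCH4 was -0.067 (SE 0.35, edgeR adjusted p = 0.971). The directions of NOTCH1 and NOTCH4, as well as those of the ligands JAG1 and DLL1, turned when single libraries were left out.

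Among the ligands, JAG2 had the most negative log2 fold change, and DLL4 alone had a higher mean in midkine tumours. JAG2, a Jagged ligand, stood at 72.0 CPM in the lowest, 252 CPM in the median and 558 CPM in the highest midkine library, against 269, 459 and 664 CPM in vehicle tumours. In 5 of the 9 midkine libraries it was below the lowest vehicle library, while midkine 2 and midkine 6 reached the vehicle median or above. Its log2 fold change was -0.65 (SE 0.35, edgeR adjusted p = 0.564), and -0.37 (SE 0.37) among the MYH4-positive libraries. The summed level of the basal markers, most of which were also lower, ran from 3070.3 to 23209 CPM in midkine tumours and from 7343 to 16347 CPM in vehicle tumours, and their part in the group differences of JAG2 and NOTCH3 was not tested. DLL4, the Delta-like ligand of sprouting vessels, stood at 6.65, 24.5 and 52.6 CPM in the lowest, median and highest midkine library, against 7.97, 14.2 and 28.7 CPM in vehicle tumours. In 8 of 9 midkine libraries it was above the vehicle median, in 3 above the highest vehicle library, and in midkine 1 below the lowest. Its log2 fold change was 0.64 (SE 0.37, edgeR adjusted p = 0.596).

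Vessel markers stood beside DLL4 on the higher side. All 14 measured endothelial markers had log2 fold changes above 0, none past the threshold, and their summed level ran from 363 to 1533 CPM in midkine tumours and from 363 to 901 CPM in vehicle tumours. At most 1 endothelial marker was without reads in any library. Of the 10 pericyte markers, 8 had higher and 2 lower means in midkine tumours, none past the threshold and none without reads, with a summed level of 329.7 to 594 CPM in midkine tumours and 266 to 586 CPM in vehicle tumours. In such bulk samples more cells of a type cannot be told apart from more RNA per cell, and the part of vessel content in the DLL4 value was not tested.

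JAG1 and DLL1 had means close to those of vehicle tumours and a wide spread among midkine tumours. JAG1, the other Jagged ligand, stood at 39.3, 132 and 245 CPM in the lowest, median and highest midkine library, against 103, 138 and 152 CPM in vehicle tumours. The midkine values spread to either side, with 4 below the lowest vehicle library (midkine 1, 3-1, 4-2 and 5) and 3 above the highest (midkine 2, 3-2 and 4-3). The log2 fold change was -0.077 (SE 0.36, edgeR adjusted p = 0.968), and -0.45 (SE 0.40) among the MYH4-positive libraries. DLL1, a Delta-like ligand, had a lowest, median and highest level of 22.0, 70.8 and 155 CPM among midkine tumours and of 46.2, 67.7 and 98.1 CPM among vehicle tumours. The same midkine 1, 4-2 and 5 were below every vehicle library, and midkine 2 was above. Its log2 fold change was -0.035 (SE 0.38, edgeR adjusted p = 0.988).

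Of the targets, HEY1 had the largest log2 fold change of the 10 genes, and HES1 a small one. HEY1, a transcription repressor, stood at 1.58, 3.87 and 9.16 CPM in the lowest, median and highest midkine library, against 3.56, 11.0 and 16.2 CPM in vehicle tumours. All 9 midkine libraries were below the vehicle median, but vehicle 3 and vehicle 5, at 3.65 and 3.56 CPM, were lower than 6 of the 9 midkine libraries. The means were 4.30 ± 2.31 CPM in midkine tumours (SD, n = 9) and 9.75 ± 5.23 CPM in vehicle tumours (SD, n = 6), a log2 fold change of -1.18 (SE 0.41, unadjusted p = 0.0104, edgeR adjusted p = 0.399). It was -0.97 (SE 0.43) without vehicle 2-1 and -1.07 (SE 0.47) among the MYH4-positive libraries. HEY1 had 13 to 131 reads a library, the fewest of the members, so its single values are the least precise.

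HES1, a repressor that also silences its own gene, stood at 46.9, 97.6 and 181 CPM in the lowest, median and highest midkine library, against 99.1, 113 and 139 CPM in vehicle tumours. As with JAG1, the vehicle range was narrow, and 6 midkine libraries lay below it and 2 above it. The log2 fold change was -0.14 (SE 0.27, edgeR adjusted p = 0.907), and it was -0.042 without midkine 5 and -0.28 without midkine 4-3. The SD of log2 CPM was 0.69 in midkine and 0.20 in vehicle tumours for HES1, and 0.99 and 0.23 for JAG1. A ratio of SDs as large as that of JAG1 was held by 4.69% of all genes and one as large as that of HES1 by 9.02%. Over all members the SD was larger in midkine tumours for 8 of 10 genes, and 82.2% of all genes did the same, so the count of members is near the background. The difference in spread was not tested.

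**Figure D2:**
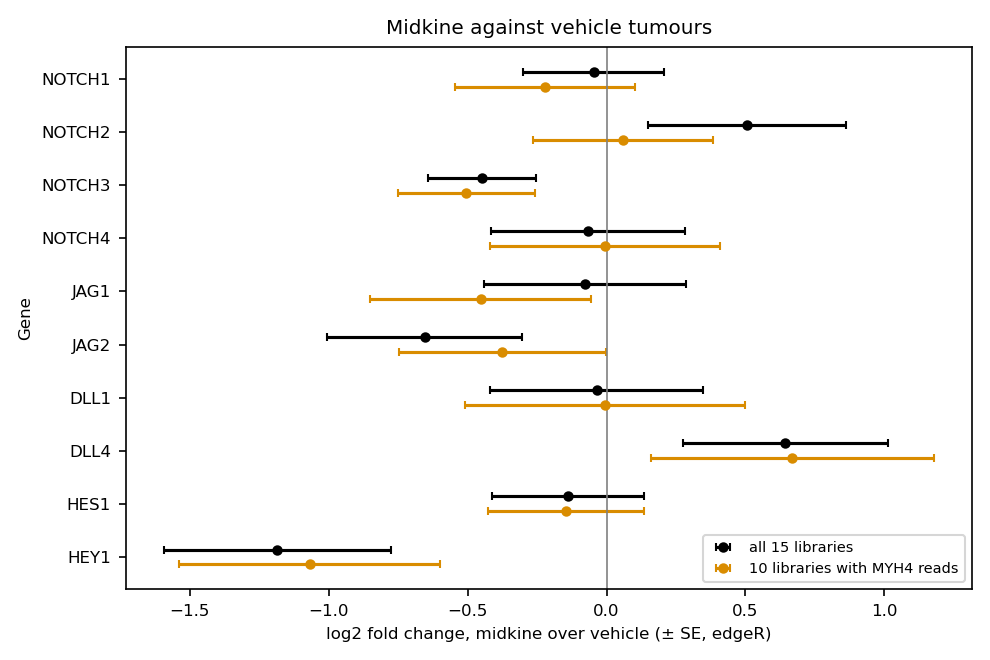
Log2 fold change of midkine over vehicle for each Notch gene (horizontal axis) with its SE, in all 15 libraries and in the 10 that carried MYH4 reads. HEY1 lies farthest from 0 at -1.18, and NOTCH2 stands at 0.51 over all libraries and at 0.060 in the MYH4-positive ones.

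The make-up of the pathway in a tumour was read from each gene's share of the reads of its family, which depends on transcript length and is therefore compared only across libraries. NOTCH3 took 26.1 ± 4.33% of the receptor reads in midkine tumours (SD, n = 9) and 34.1 ± 7.69% in vehicle tumours (SD, n = 6). NOTCH2 took 16.1 ± 8.45% and 10.6 ± 3.55% of them in midkine and vehicle tumours, with midkine 3-2 at 32.8% and midkine 4-2 at 26.0%. Among the ligands, JAG2 held 49.9% to 77.0% of the reads in every library except midkine 3-2, where it held 17.2% and JAG1 58.4%. In the other libraries JAG1 had 11.9% to 32.1% of the ligand reads. DLL4 took 6.19 ± 4.77% of ligand reads in midkine and 2.63 ± 1.17% in vehicle tumours, and 17.7% in midkine 5, the highest library. Shares were not tested.

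**Figure D3:**
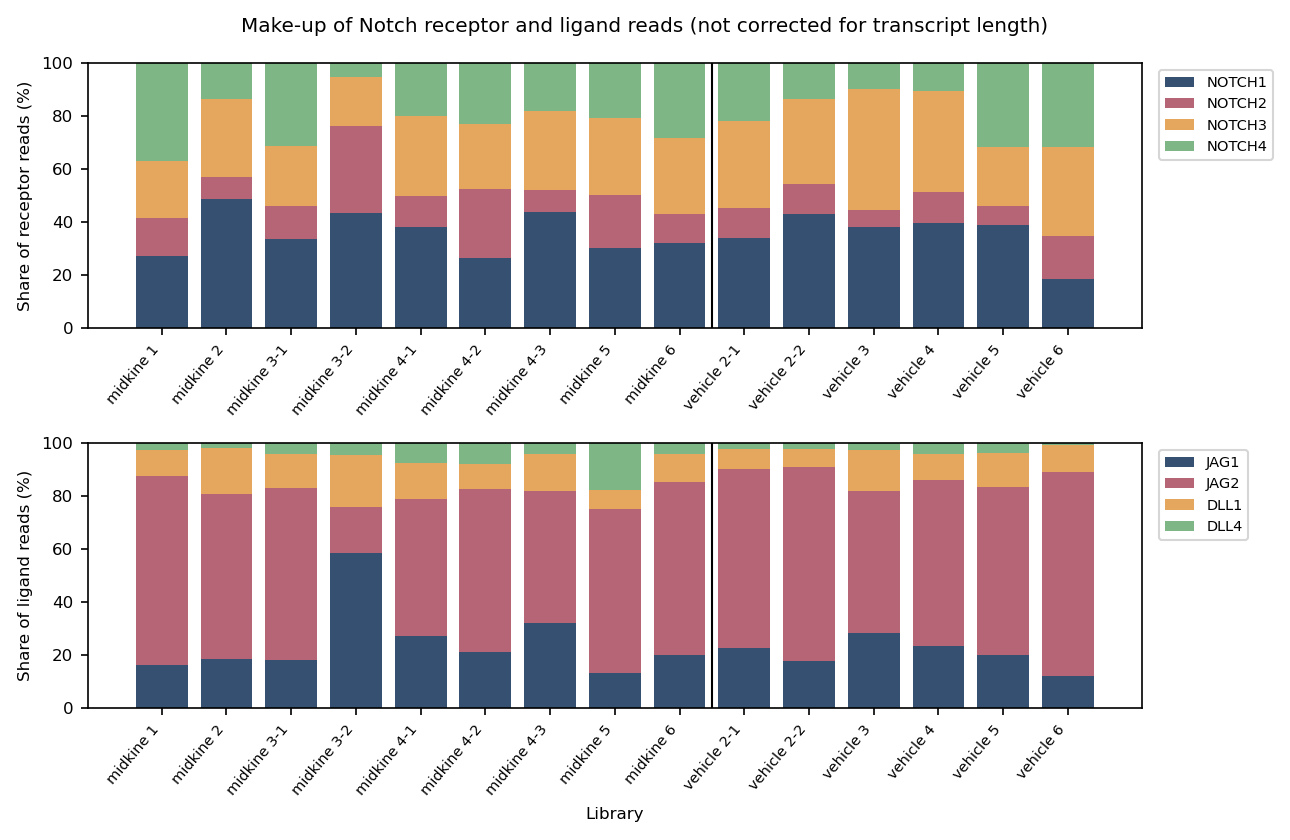
Share of the reads of the 4 receptors (upper bars) and of the 4 ligands (lower bars) taken by each gene in each library, in percent, midkine libraries left of the line and vehicle libraries right of it. Midkine 3-2 stands out with 32.8% NOTCH2 and 58.4% JAG1, and midkine 5 with 17.7% DLL4.

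Midkine 3-2 held the highest or the lowest of the 15 values for 5 of the 10 members: NOTCH2 and JAG1 were highest there, and NOTCH4, JAG2 and HEY1 lowest. That library was also extreme for 48.2% of all genes, so the share among members is near the background. Midkine 5 was extreme for 4 members (DLL4 highest; JAG1, DLL1 and HES1 lowest), against 19.8% of all genes, and midkine 1 for 3 (NOTCH1, NOTCH3 and DLL4 lowest), against 36.6%. The summed fibroblast markers stood at 145726 CPM in midkine 5, against 11205 CPM in the highest vehicle library. In midkine 5, 10 genes took 17.7% of the reads. The part of this make-up in the Notch values of midkine 5 was not tested. No vehicle library was extreme for more than 2 members.

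**Figure D4:**
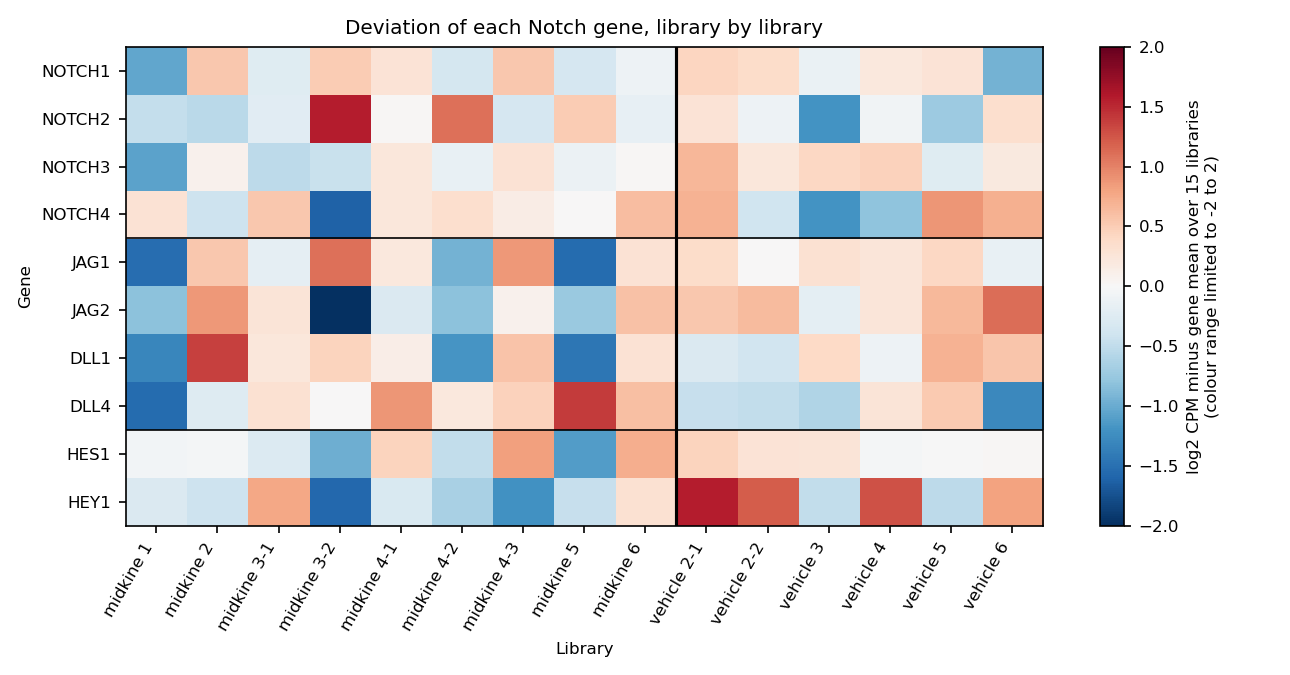
Deviation of each Notch gene (rows) from its own mean over 15 libraries (columns) in log2 CPM, with receptors, ligands and targets divided by thin lines and midkine libraries left of the thick line. Midkine 3-2 combines high NOTCH2 and JAG1 with low NOTCH4, JAG2 and HEY1, while HEY1 is high in vehicle 2-1, 2-2 and 4.

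Across the 15 libraries, JAG1 and NOTCH1 passed the threshold with positive slopes on epithelial markers, and DLL1 on basal markers. DLL1 had a positive slope on both lists. Each gene was fitted on the mean level of a marker list with treatment as a covariate, for all 11665 genes, and the slope is the log2 change of the gene for a change of 1 in the list's mean log2 CPM. No member belongs to a marker list, and cell content and expression per cell were not separated. On the epithelial list, which holds keratins and adhesion genes of mammary epithelium, 2 of the 10 members passed, both with positive slopes, and 3.54% of all genes had a positive and 4.26% a negative slope past the threshold. At an unadjusted p under 0.05 stood 3 members, all positive, with DLL1 as the third, against 10.8% of all genes positive and 14.3% negative. The slope of DLL1 on the epithelial list was 0.94 (SE 0.30, edgeR adjusted p = 0.0686). JAG1 had a slope of 1.18 (SE 0.13, edgeR adjusted p = 3.15e-04). The epithelial list was lowest in midkine 1, 4-2 and 5 (6.88, 7.06 and 7.07 log2 CPM) and highest in midkine 3-2 and 4-3 (8.99 and 8.88), and JAG1 was low and high in the same libraries.

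NOTCH1 had a slope of 0.60 on the epithelial list (SE 0.17, edgeR adjusted p = 0.0380). The 2 slopes kept their sign in all settings tried. JAG1 passed with any library left out and with counts summed by title number. It did not pass among the MYH4-positive libraries (slope 1.42, SE 0.25, edgeR adjusted p = 0.0502), where 0.388% of all genes passed. Nor did it pass with the title number as a replicate block (slope 1.135, SE 0.19, edgeR adjusted p = 0.0740), where 0.129% of all genes passed. NOTCH1 passed neither among the MYH4-positive libraries (slope 0.80, adjusted p = 0.212) nor with the replicate block (slope 0.60, adjusted p = 0.177). It also did not pass with counts summed by title number (slope 0.61, adjusted p = 0.156) or without any of vehicle 2-1, vehicle 2-2, midkine 1, 3-1, 3-2, 4-1, 4-3 or 5.

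On the basal list, which holds myoepithelial keratins and contractile genes, 1 of 10 members passed, against 1.58% of all genes with a positive and 2.64% with a negative slope. DLL1 had a slope of 0.83 (SE 0.22, edgeR adjusted p = 0.0499), close to the threshold. It passed among the MYH4-positive libraries (slope 1.07, SE 0.22, adjusted p = 0.0474). It passed neither with relative log expression scaling (adjusted p = 0.0540), nor with counts summed by title number (adjusted p = 0.0793), nor with the replicate block (adjusted p = 0.130). With a library left out it passed 3 of 15 times, without vehicle 5, midkine 3-2 or midkine 5, and its slope ran from 0.72 (without midkine 2, adjusted p = 0.191) to 1.08 (without midkine 3-2, adjusted p = 0.0114). JAG2 had a slope of 0.72 (SE 0.23, adjusted p = 0.0748) and NOTCH2 of -0.71 (SE 0.24, adjusted p = 0.0857), so that the 2 genes had opposite signs without passing. At an unadjusted p under 0.05 stood 4 members with positive and 1 with a negative slope, against 8.8% and 16.7% of all genes.

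On the endothelial list 0 of 10 members passed by edgeR, against 1.71% of all genes with a positive and 0.0686% with a negative slope, and DLL1 and DLL4 had an unadjusted p under 0.05, where 8.96% of all genes had a positive and 3.27% a negative slope. DLL4 had a slope of 0.58 (SE 0.24, adjusted p = 0.322) and DLL1 of -0.76 (SE 0.23, adjusted p = 0.134). NOTCH4, known from endothelial cells, had a slope of -0.073 (SE 0.30, adjusted p = 0.966) on the vessel markers. On the pericyte list 0 of 10 members passed, as did 0% of all genes. At an unadjusted p under 0.05 stood 4.41% of all genes with a positive and 6.55% with a negative slope, and 1 member, DLL4, with a slope of 1.53 (SE 0.23, adjusted p = 0.0958). With 1 library left out, DLL4 passed only without midkine 1, its lowest library, where 0.0172% of all genes passed. NOTCH3, known from pericytes, had a slope of 0.27 (SE 0.25, adjusted p = 0.673) on this list.

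**Figure D5:**
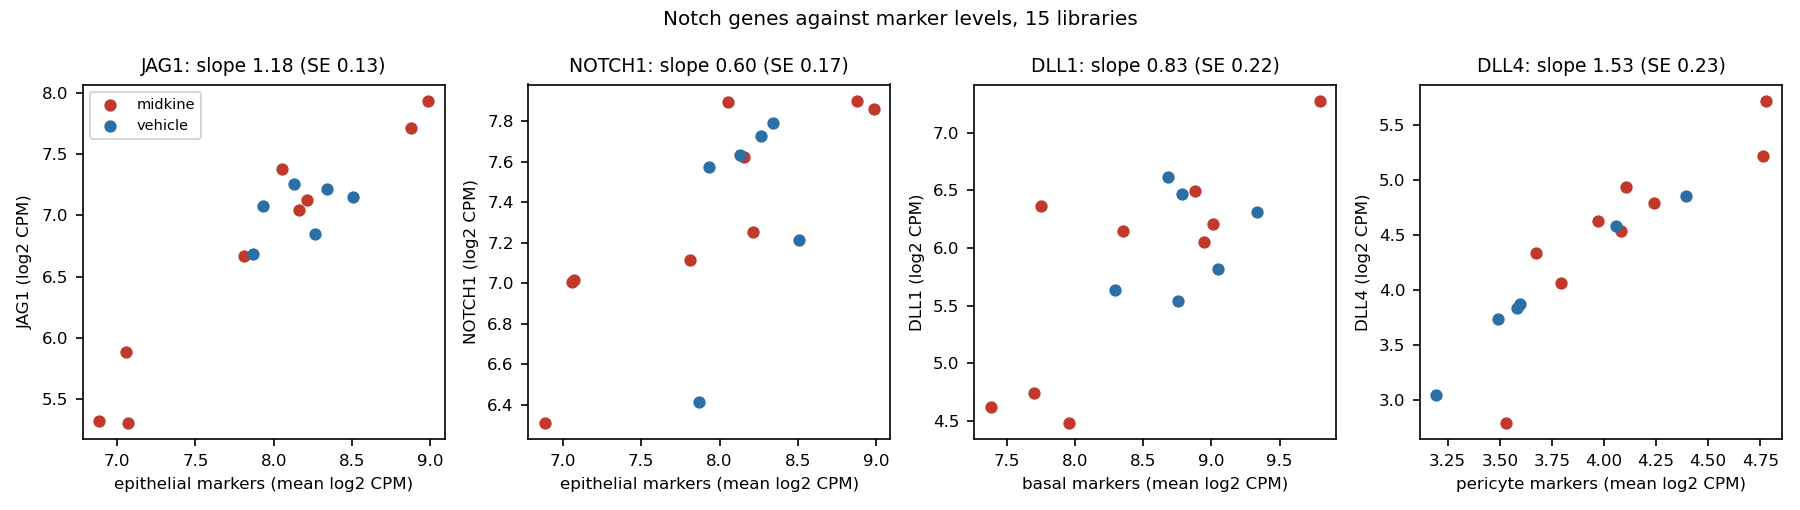
Level of JAG1, NOTCH1, DLL1 and DLL4 (log2 CPM, vertical axes) against the mean level of a marker list (log2 CPM, horizontal axes) in 15 libraries, midkine and vehicle in separate colours. JAG1 follows the epithelial list with a slope of 1.18 and DLL4 the pericyte list with a slope of 1.53, of which the first passed the threshold over all genes.

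The genes most like each member were listed by Spearman's rho of log2 CPM over the 15 libraries, which share tumour make-up as well as depth. JAG1 was among the 3 genes most like NOTCH1 (rho 0.857), beside PDE8B and SIN3B (0.875 each), and SIN3B was also among those most like JAG1 (0.896) with TMEM40 (0.925) and CDCP1 (0.911). DLL4 was most like COX4I2 (0.896) and VWF (0.882), both on the vessel marker lists, followed by IL34 (0.871). JAG2 had the highest values, with JAM3 (0.979), ADAMTS18 (0.968) and NRADD (0.943). NOTCH2 was most like CLCN7 (0.954), IP6K1 (0.943) and BCL2 (0.939), and DLL1 most like PHLDA2 (0.932), EFR3A (0.904) and the laminin gene LAMA5 (0.900). HES1 was most like EVPL (0.918), PLEK2 (0.879) and AATK (0.864), and HEY1 most like ACSBG1 (0.879), GSTA1 (0.871) and the clock gene PER3 (0.861). For NOTCH3 the list held UGT1A6 (0.886), POMT2 (0.882) and ERMP1 (0.861). NOTCH4 had the lowest values, with ACTR5 (0.850), LTBP2 and USP30 (0.804 each). These are the highest values of a search over all genes kept, and no test was made.

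The rest of the pathway was read from 8 lists of 59 genes, of which 53 were in the table and 48 passed the filter. By edgeR 0 of the 48 passed the threshold, 18 were higher and 30 lower in midkine tumours, and the median log2 fold change was -0.049. Over all genes 44.3% were lower. At an unadjusted p under 0.05 stood 3 higher genes and 1 lower gene of the 48, near the 7.96% higher and 2.13% lower of all genes. DTX4, a ubiquitin ligase of the Deltex family, averaged 4.20 ± 4.14 CPM in midkine tumours (SD, n = 9) and 1.40 ± 0.70 CPM in vehicle tumours (SD, n = 6), with a log2 fold change of 1.57 (SE 0.59, edgeR adjusted p = 0.399). Midkine 5 and 4-2 held 12.1 and 10.7 CPM of it, and the other midkine libraries at most 3.09 CPM. In vehicle libraries DTX4 had only 5 to 19 reads. NUMBL, related to the Notch inhibitor NUMB, had 0.95 (SE 0.38), or 0.60 (SE 0.28) without midkine 5, which held 103 CPM against at most 60.5 CPM elsewhere.

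RBPJ, the DNA-binding partner of all the receptors, ranged from 42.5 through 55.8 to 193 CPM in midkine tumours and from 34.4 through 47.1 to 56.2 CPM in vehicle tumours. The high library was again midkine 3-2. Its log2 fold change was 0.64 (SE 0.30, unadjusted p = 0.0485) and 0.30 (SE 0.14) without that library. DTX2, another Deltex gene, with 64.9 CPM in midkine 3-2 and 50.3 CPM in midkine 4-2, had 0.53 (SE 0.25), or 0.33 (SE 0.19) without midkine 3-2. The co-repressor TLE2 had -0.60 (SE 0.27), or -0.32 without vehicle 2-1, and the 11 co-repressor genes had a median of -0.15, with 10 below 0, against 0.04 and 44.3% below 0 over all genes. TLE2 was the co-repressor with an unadjusted p under 0.05, and the list was not tested. None of these passed.

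Of the other targets, 5 of 8 passed the filter, 4 lower and 1 higher in midkine tumours, with none past the threshold. NRARP, a feedback inhibitor that Notch induces, averaged 99.0 ± 50.7 CPM in midkine tumours (SD, n = 9) and 134 ± 46.6 CPM in vehicle tumours (SD, n = 6), a log2 fold change of -0.44 (SE 0.34). HES6 had -0.39 (SE 0.24) and HEY2 -0.66 (SE 0.49). HEY2 had only 2 to 53 reads a library. HEYL, a HEY relative that vascular mural cells are known to express, had 0.58 (SE 0.32), in the opposite direction to HEY1 and HEY2. The 8 genes of receptor cleavage were 4 higher and 4 lower, from -0.18 to 0.41, and the 5 of receptor glycosylation ran from -0.41 (POGLUT1) to 0.81 (MFNG), with LFNG at -0.0025 (SE 0.24). Ligand endocytosis genes ran from -0.17 to 0.59 (5 measured, 3 higher), and the 2 measured non-canonical ligands DLK1 and DLK2 stood at -0.059 and -0.046.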

How the data were processed

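The submitters extracted RNA from tumour pieces, of which 3000 ng a sample became poly(A) libraries sequenced as 150-bp read pairs, per the labels' protocols. The authors deposited whole-number read counts per gene symbol, not normalized, as the values show. The build was rn6, per the submitters' processing notes. The sources used here do not state the counting mode, strand or annotation, and overlapping or antisense genes may share counts. All 15 count columns matched sample titles, with 0 columns of other samples. Every pair of same-group libraries differed beyond counting error (lowest chi-square divided by its degrees of freedom 20.3, for genes averaging 20 counts or more).

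The main test was edgeR 4.0.16 in R 4.3.3, with expression filter by group, TMM scaling, quasi-likelihood F test, Benjamini-Hochberg adjustment over all genes kept, threshold 0.05. Each SE is the log2 fold change divided by the root of F. Marker slopes used the same test with treatment as a covariate, on mean log2 CPM (prior count 2) of each of 4 lists. DESeq2 1.42.0, limma-voom 3.58.1, other scaling, no filter, leaving out each library, a title-number block, counts summed by title number and the libraries with more than 10 MYH4 reads were alternatives. The tests were tested on simulated data. Named genes are the members, the 5 other pathway genes of smallest p, slopes past the threshold and the 3 genes most like each member. Other genes of the pathway lists, and slopes that did not pass, were named after their values were seen. Members and lists were chosen with earlier results of these data known. Promoter sequences are from RefSeq, GRCr8, matched by symbol.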

Additional observations from a re-analysis of the deposited data

How the results depend on the processing

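The count of Notch genes past the threshold between midkine and vehicle was 0 in all 23 alternative settings, while over all genes DESeq2 called 79 and every other setting 0. NOTCH2, NOTCH3, JAG2, DLL4, HES1 and HEY1 kept their direction in all 23. NOTCH4 turned with limma-voom (0.037). With 1 library left out, NOTCH1 ran from -0.19 to 0.057, NOTCH4 from -0.24 to 0.12, JAG1 from -0.26 to 0.056 and DLL1 from -0.29 to 0.087. With the title number as a replicate block (14 libraries), NOTCH1 had 0.14, NOTCH4 0.15 and DLL1 0.093, and 0 genes passed. Same-numbered midkine and vehicle libraries deviated together for 1 of 5 numbers (correlations -0.24 to 0.14). Such correlations cannot show whether the numbers pair the samples, because tumours also differ in make-up, and no label says it. Scaling by deposited totals alone moved the median log2 fold change of all genes to -0.11, against 0.04 with TMM, and turned no member.

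Members past the threshold on the epithelial list were 2, against 0 with the replicate block, 0 within the 10 libraries with MYH4 reads, 1 with counts summed by title number (a setting added after seeing the data) and 1 to 3 with 1 library left out. Of all genes, 7.8% passed in the main fit, 0.129% with the block, 0.388% with MYH4 reads and 8.26% with summed counts. With 1 library left out, 3.26% to 14.4% of all genes passed. On the basal list they were 1, against 0 with relative log expression scaling, 3 without the treatment term, 0 with the replicate block, 0 with summed counts and 0 to 2 with 1 library left out. There 4.22% of all genes passed in the main fit, 4.07% with relative log expression scaling and 14.1% without the treatment term. With the replicate block 0.198% did, with summed counts 0.716%, and with 1 library left out 0.603% to 8.45%. On the endothelial list the range with 1 library left out was 0 to 1, and on the pericyte list 0 to 1, with 1 without the treatment term. Of all genes, 0.241% to 2.85% passed on the endothelial list with 1 library left out. On the pericyte list at most 0.0172% did so, and 0.06% without the treatment term. With the replicate block the adjusted p was 0.0740 for JAG1 and 0.177 for NOTCH1 on the epithelial list, where 15 of 11632 genes passed, and 0.130 for DLL1 on the basal list. The cause of these changes was not tested. The 13 to 131 reads of HEY1 a library limit its precision.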

Other observations

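Libraries whose titles share a number were compared for the members as differences of log2 CPM. Midkine 3-1 and 3-2 differed most: midkine 3-1 minus midkine 3-2 was 2.35 for JAG2, 2.34 for HEY1 and 2.16 for NOTCH4, and -1.78 for NOTCH2 and -1.27 for JAG1. Midkine 4-2 minus midkine 4-3 was -1.82 for JAG1, -1.75 for DLL1, -1.33 for HES1 and 1.45 for NOTCH2. Midkine 4-1 and 4-3 differed by at most 0.90 (HEY1). In vehicle 2-1 and 2-2 the differences were within 0.44 for all members except NOTCH4, which was higher by 1.09 in vehicle 2-1. The labels do not say whether libraries of a number come from 1 animal.

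None of the 20 sets of values (10 members in each group) had a library farther from the others than the limit of Dixon's test allows, so the high NOTCH2 and JAG1 of midkine 3-2 lay within that limit.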
